A study of Mus musculus with 16 samples.

Results

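The mitochondrial ribosomal proteins were examined in the liver transcriptome of obese mice treated with G108, a long-acting glucagon analogue, with or without extra dietary protein. Members were all protein-coding genes of the GRCm38 annotation whose symbol begins with Mrpl or Mrps followed by a number, which gave 78 of the 55487 genes in the deposited table. By name, 49 belong to the large subunit (Mrpl) and 29 to the small subunit (Mrps), and 5 pseudogenes with such symbols were left out. All 78 had a mean abundance of at least 1 TPM, a share of the library's transcripts corrected for gene length, and were tested.

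Liver RNA came from 16 male C57BL6/J mice, 4 per group, with 1 library per mouse. According to the sample records, all mice had eaten a diet with 60 kcal% fat for 8 weeks from 10 weeks of age. They were then assigned to fat-rich diets of either standard (SP) or high (HP) protein content, and were injected subcutaneously with vehicle or with G108 at 2.5 nmol/kg each day for 22 days. Treatment and diet together gave 4 groups, each named below by both (vehicle SP, for example), and all mice were obese. Livers were collected on day 25 after a 4 h fast. The study's methods give a different age, length of feeding and day of collection, and the sample records are followed here.

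Mitochondria carry their own ribosome, which translates the mRNAs of the mitochondrial genome into core subunits of the respiratory chain and ATP synthase. Its rRNAs are encoded by mitochondrial DNA, whereas all its proteins are encoded in the nucleus, made in the cytosol and imported. In hepatocytes, which are rich in mitochondria and carry out the urea cycle, gluconeogenesis and fatty acid oxidation, this ribosome is needed to renew the respiratory chain. About its proteins it is known that some have counterparts in bacterial ribosomes and others are particular to mitochondria.

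Depth, recovered from the steps of the low TPM values, was 27.8 to 45.0 M reads per library (M for mega), and by group the medians were 40.4 M in vehicle SP, 37.2 M in vehicle HP, 29.7 M in G108 SP and 31.2 M in G108 HP. At that depth the least read member in any library, Mrpl44, still had 75 reads. Hepatocyte markers (Alb, Apoa1, Ttr, Cps1, Cyp2e1 and Serpina1a) were abundant in every liver, and adipocyte and skeletal muscle markers summed to at most 0.244 TPM. Exocrine pancreas markers summed to at most 1.74 TPM. Other cell types varied between livers, with blood markers at 314 to 1062 TPM and Kupffer cell markers at 25.2 to 96.6 TPM. Because TPM are shares of a library, and major urinary protein (Mup) genes supplied between 18.2% and 49.7% of all TPM, libraries were also scaled by median of ratios, which sets the typical gene to the same level. Values after this division are called scaled TPM. In whole liver, fewer cells with a transcript and less of it per cell cannot be told apart.

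The library of vehicle SP mouse 4 stood apart from the others. The interquartile range of the members' deviations from their own means was 0.52 on the log2 scale in this library and 0.13 to 0.28 in the other 15. It held the lowest scaled value of all 16 livers for 35 of the 78 members and the highest for 9. The same was seen over all genes tested, with an interquartile range of 0.72 in this library against 0.19 to 0.41 in the others. The deviations of the members in this liver correlated with those in G108 HP mouse 3 (r = 0.70 across 78 genes of these 2 libraries, which are not independent replicates). What set this library apart was not tested, and the counts of comparisons that include it, and most named members, are given with and without it.

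The members spanned a broad range of abundance. Their mean TPM over 16 livers ran from 1.88 to 56.0, with a median of 7.96, compared with 4.30 for all genes tested. The median was 9.62 TPM for the large subunit and 6.02 TPM for the small subunit. The highest large subunit members were Mrpl18 (56.0 TPM) and Mrpl12 (50.5 TPM), and the highest small subunit members were Mrps21 (39.9 TPM) and Mrps34 (28.9 TPM). At the other end were Mrpl19 (1.88 TPM) and Mrpl3 (2.22 TPM), and in the small subunit Mrps30 (2.54 TPM) and Mrps35 (2.57 TPM). Of the exon length of Mrps34, 63.4% is overlapped by exons on the opposite strand and 37.0% by exons on the same strand (of Mapk8ip3 and Nme3), and 36.0% of that of Mrpl19 is overlapped by Gcfc2. Whether counting used strand is not given in the sources used here, so reads of these pairs cannot be told apart, and for the same-strand share they could not be told apart with strand either. Cytosolic ribosomal proteins were far more abundant, with a median of 66.3 TPM among the 84 tested, and the nuclear-encoded subunits of the respiratory chain had a median of 55.2 TPM among 80.

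Levels were related to the length by which reads were divided. TPM used the length of all exons of a gene, and across the 78 members longer genes had lower TPM (Spearman's rho = -0.82, a description across genes, which are not independent replicates and share the length on both axes). Mrps35 has 8631 bases of exons and Mrpl3 6661, whereas Mrps21 has 739. When levels were instead divided by the median length of each gene's protein-coding transcripts, Mrpl3 stood at 6.39 and Mrps35 at 9.88, and Mrpl19 was still the lowest at 2.05. On that scale Mrpl52 was the highest at 76.0, followed by Mrps21 at 72.9. The ratio of the 90th to the 10th percentile was 10.3 by exon length and 7.70 by transcript length. That of the highest to the lowest member was wider by transcript length, at 29.8 and 37.1. Levels by transcript length still fell with that length (Spearman's rho = -0.72, again with the length on both axes). How much of the range is due to length was not tested. The medians on this second scale were 22.4 for the large and 15.7 for the small subunit.

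**Figure D1:**
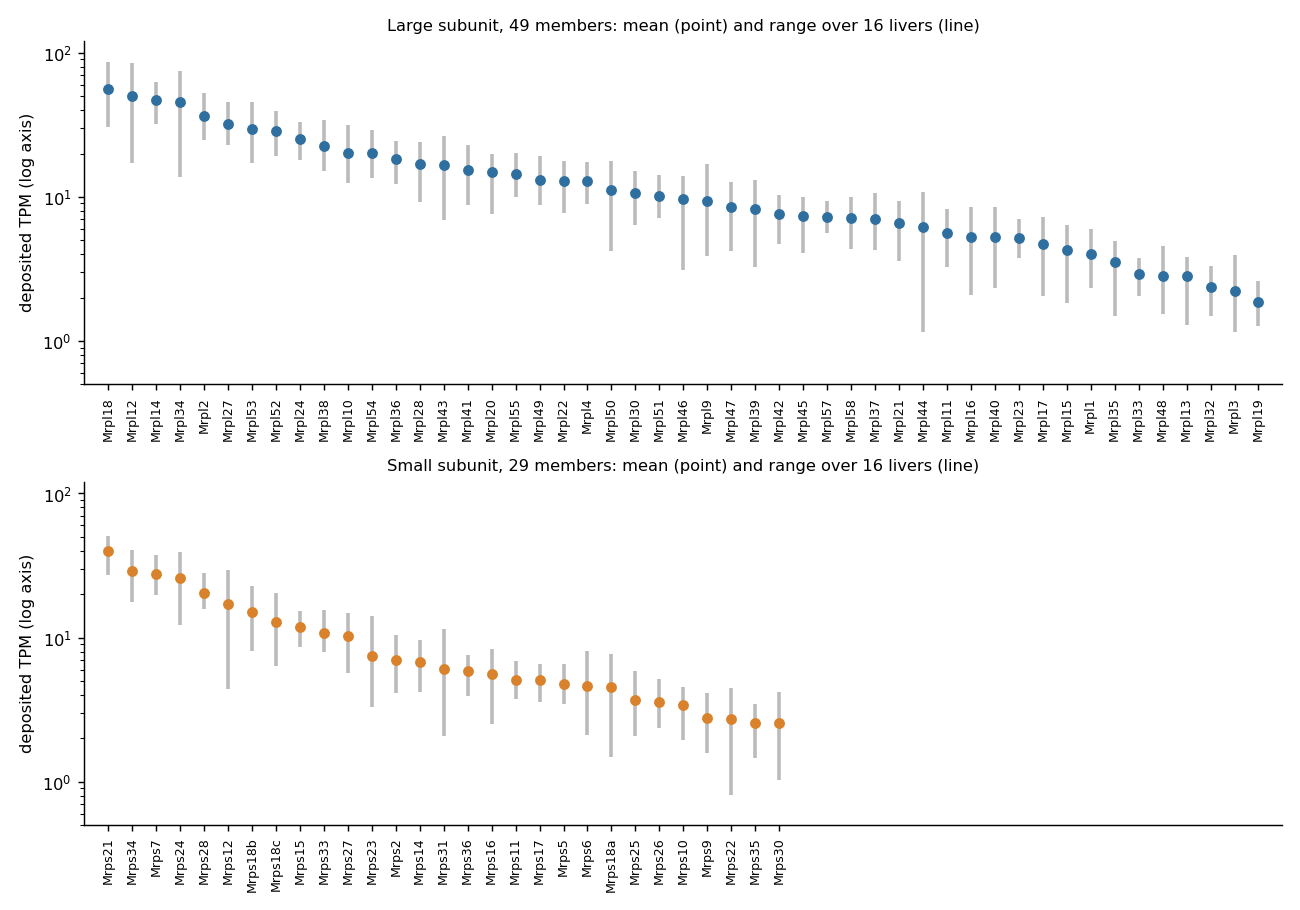
Deposited TPM (log axis) of each of the 49 large subunit members (top) and 29 small subunit members (bottom), ordered by mean. Points are means and grey lines the lowest to highest of 16 livers, and the means run from 56.0 TPM for Mrpl18 to 1.88 TPM for Mrpl19.

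To see what these genes share in sequence, the 300 bases around each RefSeq start (250 before it and 50 after it, build GRCm38.p6) were searched on both strands for 5 motifs. A promoter was listed for 69 of the 78 members. The ETS family motif CCGGAAG was present in 36.2% of them, compared with 12.3% of all 16522 promoters of protein-coding genes and 20.2% of those of genes tested. The YY1 core ATGGCGG was found in 18.8% of the members' promoters, 5.57% of all and 9.54% of those of genes tested. For the core of NRF1, GCGCATG, the shares were 11.6%, 5.04% and 7.65%. The cAMP response element TGACGTC was found in 5.80% of the members, 4.13% of all promoters and 5.91% of those of genes tested, and the AAGGTCA motif of ERR and other nuclear receptors in 5.80%, 3.95% and 3.43%. Any of the 5 motifs was present in 60.9% of the members' promoters, 26.5% of all and 38.7% of those of genes tested. The shares were 66.2% for cytosolic ribosomal proteins (36.9% for the ETS motif) and 56.1% for the nuclear-encoded respiratory chain (22.7%). A match is a run of letters and was not tested for binding. Starts of members also lay close to those of protein-coding genes transcribed away from them on the opposite strand. Such a start lay within 1000 bases for 19 of 78 members (24.4%), and pairs with longer overlaps were not counted. The share was 7.23% of all 21897 protein-coding genes, whether expressed in liver or not. It was 10.99% of cytosolic ribosomal proteins and 25.6% of nuclear-encoded respiratory chain genes.

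The regions before the starts of 4 members are shown to let the motifs be read in place. Each runs 5′ to 3′ in the direction of transcription, from 250 to 11 bases before the start, with motif matches in capitals. Mrpl22 (chr11:58171414-58171653, plus strand) holds an ETS match 53 bases and an NRF1 match 33 bases before the start. Mrpl34 (chr8:71464676-71464915, plus strand), among the 4 most abundant members, holds an ETS match 37 bases before it. Mrps21 (chr3:95871525-95871764, minus strand) holds 2 nuclear receptor matches, 175 and 63 bases before the start, the first of which reads on the opposite strand. Mrps23 (chr11:88204138-88204377, plus strand) holds a cAMP response element 61 bases before it. That motif was also present before the starts of Mrpl16, Mrpl49 and Mrps10. On SP, mean scaled TPM with G108 were higher for Mrps23 and Mrpl16 and lower for Mrpl49 and Mrps10. Mrpl16 was higher only with vehicle SP mouse 4 included. It was at 3.08 in that liver, 5.56, 5.10 and 5.33 in the other vehicle SP livers and 5.16 on average in G108 SP livers. Groups overlapped for Mrpl16 and Mrps10. A link between this motif and the differences with G108 was not tested. Mrps21 and Mrps23 also had an ETS match, and Mrpl22 a YY1 match, in the 300 bases searched but outside the stretch shown.
Mrpl22: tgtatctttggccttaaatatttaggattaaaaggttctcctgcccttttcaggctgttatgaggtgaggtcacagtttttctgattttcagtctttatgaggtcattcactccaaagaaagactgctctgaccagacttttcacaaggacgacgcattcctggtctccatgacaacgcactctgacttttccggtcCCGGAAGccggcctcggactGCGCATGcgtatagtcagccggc
Mrpl34: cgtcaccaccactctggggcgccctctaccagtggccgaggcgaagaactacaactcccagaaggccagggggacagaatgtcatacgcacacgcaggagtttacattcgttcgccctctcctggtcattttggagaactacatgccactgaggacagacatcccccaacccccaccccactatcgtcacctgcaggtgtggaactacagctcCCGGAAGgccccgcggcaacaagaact
Mrps21: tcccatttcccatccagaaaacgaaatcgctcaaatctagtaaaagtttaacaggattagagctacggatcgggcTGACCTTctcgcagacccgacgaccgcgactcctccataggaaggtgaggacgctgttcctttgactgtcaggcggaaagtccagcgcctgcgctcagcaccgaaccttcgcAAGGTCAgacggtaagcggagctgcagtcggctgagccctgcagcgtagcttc
Mrps23: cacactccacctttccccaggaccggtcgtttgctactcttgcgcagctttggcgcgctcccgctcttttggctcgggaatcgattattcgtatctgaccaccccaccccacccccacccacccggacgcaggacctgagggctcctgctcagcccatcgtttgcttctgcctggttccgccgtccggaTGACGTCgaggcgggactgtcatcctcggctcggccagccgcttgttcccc

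As shares of the library, mitoribosomal transcripts were higher with G108 on SP. The deposited TPM of the 78 members summed to 718, 948, 842 and 674 in the vehicle SP livers and to 1289, 1330, 1426 and 1341 in the G108 SP livers. In vehicle HP livers they summed to 925, 999, 856 and 789, and in G108 HP livers to 1071, 1015, 891 and 1278. The G108 SP livers were thus all above the 12 other livers. All 78 members were called higher on TPM as deposited (limma, adjusted p of 0.038 or less), where 77.6% of all genes tested were called and 77% were called higher. The median log2 difference was 0.68 for the members and 0.60 for all genes. With vehicle SP mouse 4 left out, 77 of 78 members and 72.2% of 11894 genes were called higher, with medians of 0.59 and 0.55. Mrps12 went from a mean of 10.5 TPM in vehicle SP to 27.2 in G108 SP livers, Mrps31 from 3.47 to 9.41 and Mrpl44 from 3.56 to 9.31. Mrps21 went from 34.6 to 44.3 TPM and Mrpl19 from 1.70 to 2.26. On the log2(TPM + 1) scale, which understates changes of low genes, Mrps12 had the largest difference (1.40 ± 0.30, SE, n = 4 per group) and Mrpl19 the smallest (0.28 ± 0.11). The share of TPM from Mup genes was 42.6% to 49.7% in vehicle SP and 18.3% to 23.0% in G108 SP livers. With TPM recomputed without Mup genes and genes of the mitochondrial genome, 0 of 78 members were called, where 2.02% of all genes were. The median difference was then 0.07 for the members and 0.05 for all genes.

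After median-of-ratios scaling the members followed the typical gene. Scaled TPM of the members summed to 946 to 1038 in vehicle SP, 903 to 1111 in vehicle HP, 915 to 1100 in G108 SP and 1033 to 1075 in G108 HP livers, and the 4 ranges overlapped. With G108 on SP, 0 of 78 members were called by limma, where 2.72% of all genes tested were called. At an unadjusted p under 0.05, 8 members were higher and 3 lower, where 9.01% of all genes were higher and 8.71% lower. The median log2 difference of the members was 0.01, with 40 above 0 and 38 below. That of all genes was -0.01, with 5762 above 0 and 6077 below. For 64 of the 78 members the 95% interval of the difference stayed within 1.5-fold in either direction, as it did for 62% of all genes. In every comparison this limit applies to scaled TPM + 1, so it allows larger changes of genes with low TPM. With voom, a count-based form of limma run on the recovered reads, 1 member (Mrps31) was called, where 2.97% of all genes were. Without vehicle SP mouse 4, 0 members were called, where 1.95% of all genes were. The median was then -0.03 for the members and -0.0015 for all genes. At an unadjusted p under 0.05, 4 members were higher and 2 lower. For fits without that mouse, the share of all genes at the unadjusted level is not given.

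**Figure D2:**
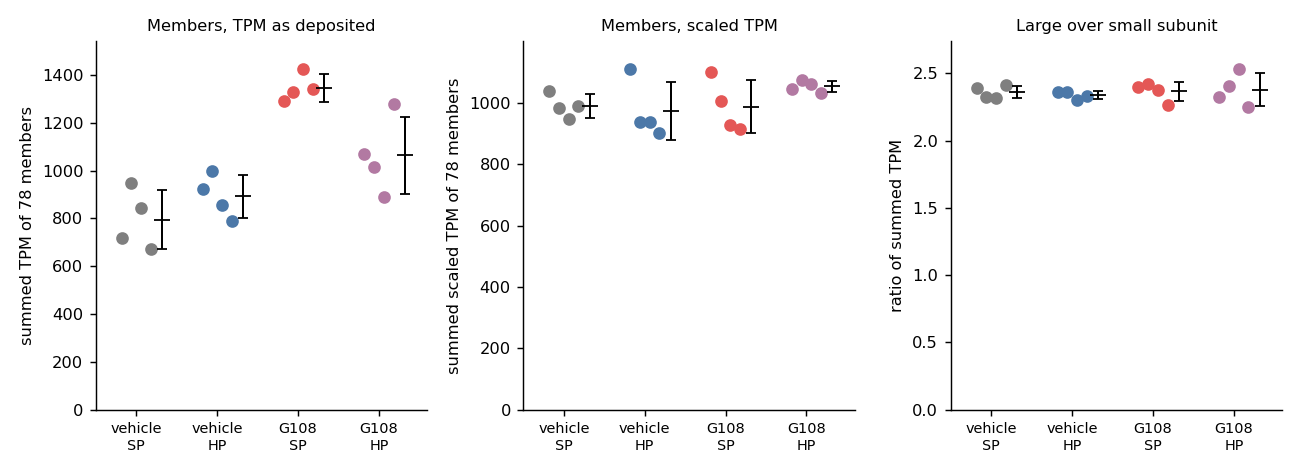
Summed TPM of the 78 members per liver as deposited (left) and after median-of-ratios scaling (middle), and the ratio of summed TPM of large to small subunit members (right). Each point is 1 mouse, with the mean and SD of 4 mice beside it. The G108 SP livers lie between 1289 and 1426 TPM as deposited and between 915 and 1100 after scaling.

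**Figure D3:**
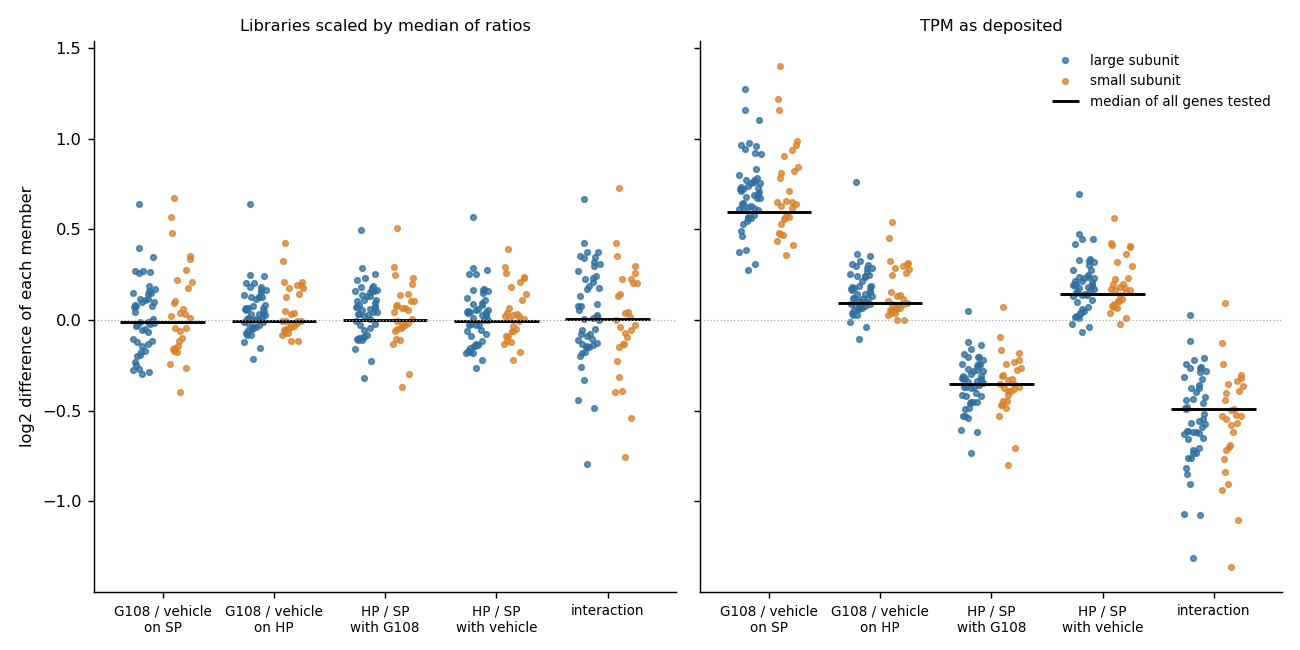
Log2 difference of each large (blue) and small (orange) subunit member in the 4 comparisons and the interaction, after median-of-ratios scaling (left) and on TPM as deposited (right). Black bars are medians of the 11839 genes tested, and the members lie around them in each comparison.

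The small subunit held the members with the smallest p for G108 on SP. Mrps23 (chr11:88204388-88211507), a small subunit protein particular to mitochondria, was at 5.31, 6.29, 6.63 and 4.84 scaled TPM in vehicle SP, 7.42, 8.36, 8.31 and 9.63 in G108 SP, 7.17, 7.93, 6.60 and 6.18 in vehicle HP and 7.98, 5.85, 5.42 and 7.63 in G108 HP livers. The G108 SP livers did not overlap with vehicle SP, and the difference was 0.48 ± 0.13 on the log2 scale (limma, adjusted p = 0.060). Mrps31 (chr8:22411361-22429665), also without a bacterial counterpart, was at 5.08, 4.43, 4.50 and 3.04 scaled TPM in vehicle SP, 5.32, 6.98, 6.94 and 7.86 in G108 SP, 4.95, 5.67, 5.61 and 4.78 in vehicle HP and 7.31, 5.46, 4.59 and 7.19 in G108 HP livers. It also did not overlap between the SP groups. Its difference of 0.57 ± 0.15 had an adjusted p of 0.064 in limma. Neither passed the threshold of 0.05, although each passed it under some other settings. Without vehicle SP mouse 4 the differences were 0.41 for Mrps23 (limma, adjusted p = 0.14) and 0.45 for Mrps31 (adjusted p = 0.15).

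Mrps12 (chr7:28739641-28741820), a protein of the decoding centre, showed the largest scaled difference of the members on SP, a rank it lost to Mrps31 and Mrps23 without vehicle SP mouse 4. It stood at 13.99, 15.01, 15.2 and 6.47 scaled TPM in vehicle SP, 21.6, 18.5, 19.2 and 20.1 in G108 SP, 14.5, 15.7, 18.4 and 15.9 in vehicle HP and 16.5, 15.3, 10.6 and 19.5 in G108 HP livers. All G108 SP livers were above all vehicle livers of either diet, narrowly so for the closest pair (18.5 and 18.4). The difference on SP was 0.67 ± 0.22 (limma, adjusted p = 0.13), and 0.41 ± 0.15 (adjusted p = 0.22) without vehicle SP mouse 4. Sars2, the mitochondrial seryl-tRNA synthetase whose start lies 172 bases from that of Mrps12 on the opposite strand, differed by 0.03 ± 0.15. The next largest difference was that of Mrpl44, at 0.64 ± 0.26 with all mice and 0.35 ± 0.20 without vehicle SP mouse 4.

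Groups did not overlap for 5 members that were higher and 3 that were lower with G108 on SP, where 4.52% and 4.69% of all genes did so. Besides Mrps12, Mrps31 and Mrps23, the higher ones were Mrpl12 and Mrps16, the last being named after its values were seen. Mrpl12, a protein of the stalk that also binds the mitochondrial RNA polymerase, was at 44.5, 47.2, 49.0 and 25.3 scaled TPM in vehicle SP and 54.6, 52.8, 55.0 and 51.1 in G108 SP livers. Its difference was 0.40 ± 0.17, and 0.18 ± 0.10 without vehicle SP mouse 4, whose 25.3 was the lowest value of all livers. Mrps16 was at 4.97, 4.99, 4.27 and 3.71 scaled TPM in vehicle SP and 6.77, 6.01, 5.25 and 5.66 in G108 SP livers, a difference of 0.34 ± 0.11 with all mice and 0.27 ± 0.10 without that mouse. The lower ones were Mrpl19 (-0.23 ± 0.11, and -0.11 ± 0.08 without that mouse), Mrpl49 (-0.12 ± 0.10, and -0.09 without it) and Mrps5 (-0.11 ± 0.07, and -0.10 without it), the last pair named after their values were seen. On TPM as deposited these 3 were above 0, at 0.28, 0.61 and 0.53. When vehicle SP mouse 4 was left out, groups did not overlap for 5 higher and 4 lower members, where 6.77% and 6.88% of all genes did so. Of the members with lower values, Mrpl4 (-0.19 ± 0.08, limma, adjusted p = 0.24) and Mrpl57 (-0.30 ± 0.12, adjusted p = 0.23) had the smallest p, although their groups overlapped, and they differed by -0.20 and -0.23 without that mouse. Both were higher on TPM as deposited, by 0.53 and 0.38, a scale on which the median of all genes was 0.60.

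**Figure D4:**
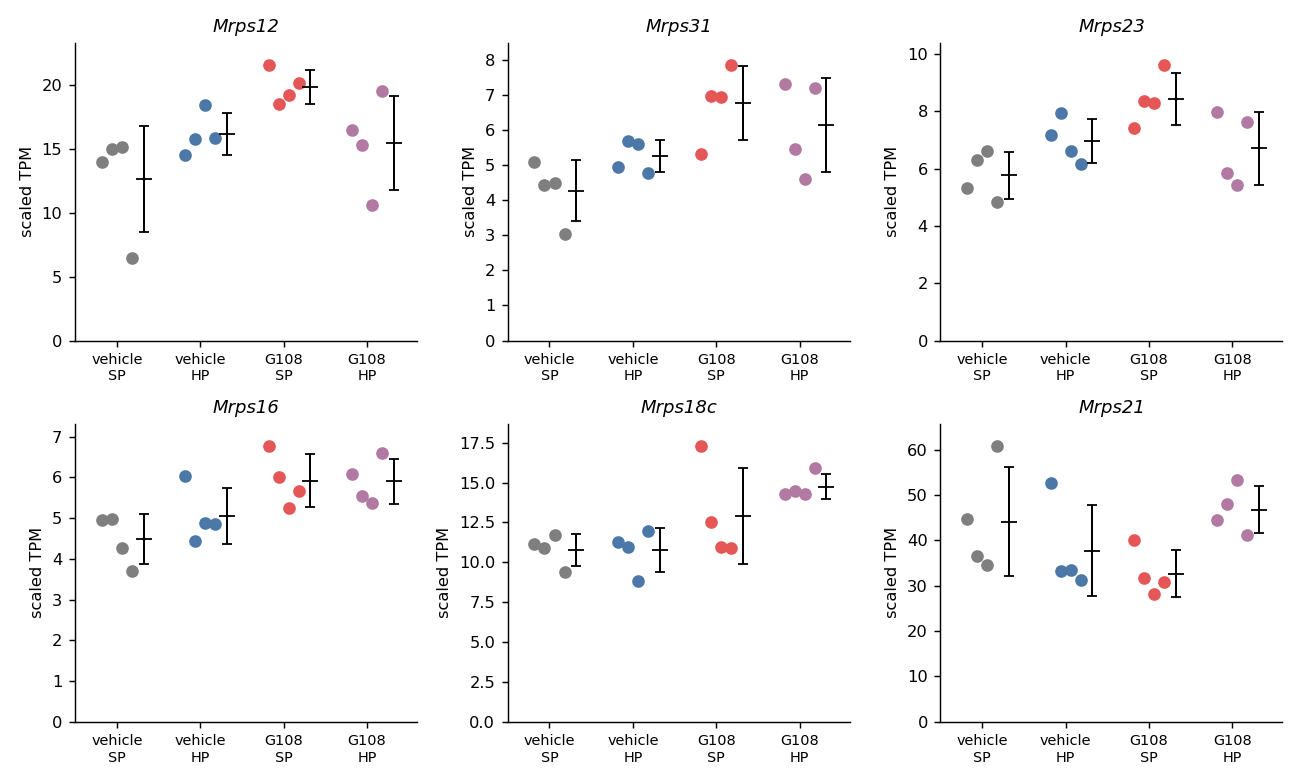
Scaled TPM of 6 small subunit members in each liver, with the mean and SD of 4 mice per group beside the points. Mrps12, Mrps31, Mrps23 and Mrps16 lie higher in all G108 SP than in all vehicle SP livers, Mrps18c in all G108 HP than in all vehicle HP livers, and Mrps21 in all G108 HP than in all G108 SP livers.

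On HP, no member was called for G108 either. Limma called 0 of 78 members after scaling, where 1.22% of all genes were called, and 2 were higher and 0 lower at an unadjusted p under 0.05, where the shares of all genes were 5.7% and 5.59%. The median difference was 0.03 for the members and 0.00 for all genes. On TPM as deposited 0 members were called as well, with medians of 0.14 and 0.09, where 1.11% of all genes were called. Mup genes held 35.7% to 44.9% of TPM in vehicle HP and 18.2% to 29.6% in G108 HP livers. The 95% interval stayed within 1.5-fold for 72 members, as it did for 67.9% of all genes. Voom called 0 members and 1.23% of all genes.

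Mrps18c (chr5:100798627-100804471), one of 3 paralogs of bacterial protein S18, had the smallest p on HP. It was at 11.3, 10.98, 8.82 and 11.96 scaled TPM in vehicle HP and 14.3, 14.4, 14.3 and 15.9 in G108 HP livers, which did not overlap. In vehicle SP livers it stood at 11.1, 10.9, 11.7 and 9.37 and in G108 SP livers at 17.3, 12.5, 10.9 and 10.9. The difference on HP was 0.43 ± 0.13 (limma, adjusted p = 0.17), and 23.2% of its exon length overlaps Gm43511 on the same strand. Its paralogs Mrps18a and Mrps18b did not show groups apart on HP. Mrpl18, the most abundant member, had the largest difference on HP, 0.64 ± 0.34, with an interval from -0.09 to 1.37. Mrps34 differed by 0.19 ± 0.09, Mrpl9 by -0.22 ± 0.14 and Mrps2 by -0.11 ± 0.08, with overlapping groups. Mrpl46 had groups that did not overlap at a difference of 0.13 ± 0.15, and such groups were seen for 2 members with higher values and 0 with lower, where 4.2% and 3.95% of all genes had them.

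After scaling, high protein with G108, compared with SP with G108, gave the largest number of members above 0 (50 of 78). Of the 11839 genes tested, 5955 were above 0. Limma called 0 of 78 members, and also 0 of the 11839 genes tested (0%). With DESeq2 on counts, the study did report a few differing genes in this comparison, mitochondrial and Mup transcripts among them. At an unadjusted p under 0.05, 4 members were higher and 2 lower, where 2.98% and 2.42% of all genes were. The median was 0.06 for the members and 0.00 for all genes, and the interval stayed within 1.5-fold for 70 members and 70.2% of all genes. Voom called 0 members and 0% of all genes. On TPM as deposited 0 members were called, 39 were lower at an unadjusted p under 0.05, where 44.6% of all genes were, and the medians were -0.34 and -0.35. The direction of most members in this comparison thus depended on the scaling, as it did for the median gene.

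Groups did not overlap for 5 members that were higher on HP with G108 and for 0 that were lower, where 2.15% and 2.12% of all genes did so. Mrps21 (chr3:95862634-95871519), a small subunit protein with a bacterial counterpart, was at 40.2, 31.7, 28.1 and 30.8 scaled TPM in G108 SP and 44.5, 47.9, 53.3 and 41.1 in G108 HP livers. In vehicle livers it ranged from 34.5 to 60.8 on SP and from 31.3 to 52.7 on HP, so the G108 HP livers lay within the vehicle range. The difference between the diets with G108 was 0.51 ± 0.19 (limma, adjusted p = 0.84). Mrps36 (0.29 ± 0.16), Mrpl20 (0.29 ± 0.12), Mrpl4 (0.23 ± 0.08) and Mrpl55 (0.18 ± 0.13, named after its values were seen) were also apart. Mrps36 is known as a component of the 2-oxoglutarate dehydrogenase complex in spite of its name. On TPM as deposited, Mrpl20, Mrpl4, Mrps36 and Mrpl55 had differences below 0 (-0.14, -0.19, -0.09 and -0.24). Mrpl9 (-0.32 ± 0.14) and Mrps23 (-0.30 ± 0.13) had the smallest p of the members with lower values.

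With vehicle, no member was called for diet. Limma called 0 of 78 members and 0 of all genes tested (0%), with a median of 0.02 for the members and 0.00 for all genes. At an unadjusted p under 0.05, 4 members were higher and 0 lower, where 1.85% and 2.09% of all genes were. Without vehicle SP mouse 4 no member was past that level in either direction (0 higher and 0 lower). Then 0 members and 0% of all genes were called. The 95% interval stayed within 1.5-fold for 69 members and 69% of all genes. Voom called 0 members and 0% of all genes. The 4 included Mrpl44, an RNase III-like protein of the large subunit, which was at 4.24, 5.23, 5.74 and 1.70 scaled TPM in vehicle SP and 4.40, 6.84, 6.73 and 7.69 in vehicle HP livers. Its difference was 0.57 ± 0.26 with all mice and 0.28 ± 0.20 without vehicle SP mouse 4. Mrpl39 (0.28 ± 0.12), Mrps18a (0.29 ± 0.14) and Mrpl1 (0.16 ± 0.07) had groups that did not overlap, where 0.938% of all genes were apart in that direction and 1.07% in the other, in which no member was apart. Without that mouse these 3 differed by 0.14, 0.12 and 0.14, and the median was -0.03 for the members and 0.00 for all genes. The groups of 3 members with higher and of 3 with lower values were then apart (1.86% and 2.09% of all genes). Mrpl14 (-0.22 ± 0.14) and Mrpl19 (-0.18 ± 0.11) had the smallest p of the members with lower values, at -0.15 and -0.06 without it.

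The interaction asked whether the G108 difference on HP departed from that on SP. Limma called 0 of 78 members and 0 of all genes (0%) in the interaction. Voom called 0 members and 0% of all genes. At an unadjusted p under 0.05, 2 members had a positive and 4 a negative interaction, where 3.75% and 3.46% of all genes did. The largest were Mrpl44 (-0.79 ± 0.36), Mrps12 (-0.76 ± 0.31) and Mrps21 (0.73 ± 0.27), and those with the smallest p were Mrps23 (-0.54 ± 0.18) and Mrpl4 (0.34 ± 0.12), all with an adjusted p of 0.58 in limma. Leaving out vehicle SP mouse 4 gave 4 positive and 2 negative interactions at that level, 0 called (0% of all genes) and a median of 0.07 in place of 0.01. The median of all genes was then 0.00. The 5 values then were -0.50, -0.49, 0.57, -0.47 and 0.35. The standard errors were larger here, and the 95% interval stayed within 1.5-fold for 46 of the 78 members and 42.2% of all genes.

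Large and small subunits were next compared. The ratio of summed TPM of large to small subunit members was 2.36 ± 0.05 in vehicle SP, 2.34 ± 0.03 in vehicle HP, 2.37 ± 0.07 in G108 SP and 2.38 ± 0.12 in G108 HP livers (mean ± SD, n = 4). Across all 16 livers it ran from 2.25 to 2.53, and both extremes were G108 HP livers. The median scaled difference of the large minus that of the small subunit was -0.03 for G108 on SP, 0.04 for G108 on HP, 0.02 for diet with G108, 0.01 for diet with vehicle and 0.01 for the interaction. A related measure, the median deviation of large minus that of small subunit members in each mouse, had an SD of 0.03 within groups. Its group means were 0.029 in vehicle SP, -0.0044 in vehicle HP, -0.0087 in G108 SP and -0.0012 in G108 HP livers. This SD describes single mice and not a difference between groups. On TPM as deposited the difference of medians was 0.05 for G108 on SP and -0.02 for the interaction, both with the opposite sign. Mrps30 and Mrps18a are known to sit in the large subunit. Moving them there, with Mrps36 left out, moved each difference of medians by less than the SD of 0.03.

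Proteins with particular places in the ribosome were described singly. Among stalk proteins other than Mrpl12, Mrpl10 differed by -0.01 ± 0.09 and Mrpl11 by 0.15 ± 0.10 for G108 on SP. On HP they differed by -0.01 ± 0.09 and 0.20 ± 0.10. Mrpl58, a peptidyl-tRNA hydrolase built into the large subunit, differed by 0.04 ± 0.10 on SP and 0.13 ± 0.10 on HP. Mrps30 differed by 0.11 ± 0.12 on SP and -0.02 ± 0.12 on HP. For G108 on SP, Mrps18a differed by 0.35 ± 0.14 and Mrps18b by 0.18 ± 0.08, with overlapping groups. Leaving out vehicle SP mouse 4 gave 0.18 for Mrps18a, 0.13 for Mrps18b, -0.02 for Mrps30, 0.01 for Mrpl10, 0.13 for Mrpl11 and 0.02 for Mrpl58. The 5 mitoribosomal proteins with other names (Dap3, Ptcd3, Chchd1, Aurkaip1 and Gadd45gip1) were not called in any comparison (0 of 5), and their medians were -0.10 for G108 on SP (-0.03 without that mouse) and 0.08 on HP.

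The rest of the mitochondrial translation machinery was described in the same way. Of 24 tested genes of mitoribosome assembly and rRNA modification, 14 translation factors and 14 aminoacyl-tRNA synthetases, limma called 0 in any comparison after scaling. For G108 on SP the medians were -0.03, 0.03 and 0.02, and without vehicle SP mouse 4 they were 0.03, 0.00 and 0.01. Mrm3, an rRNA methyltransferase, had the smallest adjusted p of these genes (-0.32 ± 0.09, limma, adjusted p = 0.090), and its G108 SP values were all below those of vehicle SP. Tufm, the elongation factor that brings aminoacyl-tRNA to the ribosome, differed by 0.57 ± 0.20 (adjusted p = 0.15 in limma), with groups that did not overlap, and Gfm1, the translocation factor, by 0.56 ± 0.26. When vehicle SP mouse 4 was left out these 3 differed by -0.28, 0.30 and 0.33. On HP, Mrm1 differed by 0.46 ± 0.16 and Ngrn, an assembly factor, by -0.23 ± 0.09. Cytosolic ribosomal proteins had a median of -0.10 for G108 on SP and 0.00 on HP, with 0 of 84 called.

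The mRNAs that the mitoribosome translates did not keep a fixed ratio to its protein transcripts. Summed TPM of the 13 mitochondrial mRNAs divided by that of the members was 138, 101, 101 and 209 in vehicle SP, 126, 105, 125 and 116 in vehicle HP, 90.3, 97.0, 75.2 and 80.6 in G108 SP and 123, 166, 265 and 101 in G108 HP livers. All 4 G108 SP livers lay below all 12 others, and the highest ratios were those of G108 HP mouse 3 and vehicle SP mouse 4. This ratio does not depend on the scaling of the library. In scaled values the median difference of the 13 mRNAs between HP and SP with G108 was 0.93, beside 0.06 for the members. Of these mRNAs, which are not independent of each other, 13 were at an unadjusted p under 0.05 and 0 were called by limma. At that unadjusted level 2.98% of all genes were higher and 2.42% lower. The mitochondrial genome held 37.3% of TPM in G108 HP mouse 3 and 21.0% to 27.4% in the other G108 HP livers. The difference without that mouse is not given here. For G108 on SP the median scaled difference of the 13 mRNAs was -0.62 beside 0.01, and -0.41 beside -0.03 without vehicle SP mouse 4. As deposited, their summed TPM averaged 105270 in vehicle SP and 115200 in G108 SP livers, with overlapping ranges. The direction of these mRNAs on SP thus depended on the scaling. The summed TPM of the members, by which the ratio divides, were also higher in G108 SP livers as deposited. The mitochondrial rRNAs varied widely between mice, with mt-Rnr1 at a difference of 0.66 ± 0.77 for G108 on SP. The ratio of cytosolic to mitochondrial ribosomal protein transcripts ran from 6.05 to 7.70 in the 16 livers, and that of respiratory chain to mitochondrial ribosomal protein transcripts from 5.38 to 6.31.

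**Figure D5:**
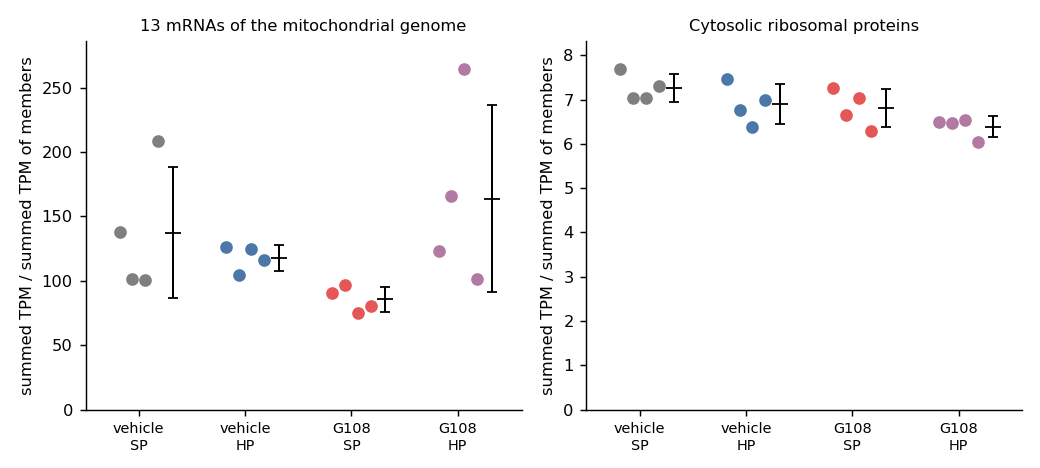
Ratio of the summed TPM of 13 mitochondrial mRNAs (left) and of cytosolic ribosomal proteins (right) to the summed TPM of the 78 members. Each point is 1 liver, with the mean and SD of 4 mice beside it. For the mitochondrial mRNAs the G108 SP livers lie between 75.2 and 97.0, below all others.

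The members varied together only loosely from mouse to mouse. For deviations from the group means over 16 libraries, the median pairwise r between members was 0.25, compared with 0.65 for cytosolic ribosomal proteins, 0.59 for the nuclear-encoded respiratory chain and 0.00 for 2960 of the genes tested. These are descriptions over libraries that share depth and composition, and the cytosolic and respiratory chain lists were far more abundant than the members. Without vehicle SP mouse 4 the values were 0.21, 0.76, 0.70 and 0.00. Mrpl13 (0.90), Mrps15 (0.90) and Mrpl28 (0.89) followed the median of the other members most closely in those 15 libraries, whereas Mrpl3 (-0.75) and Mrps30 (-0.64) ran against it. With all 16 libraries these members were at 0.93, 0.52, 0.93, -0.39 and 0.02. A positive r with the median of the others was found for 71 of 78 members with all libraries and for 62 without that mouse.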

How the data were processed

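Liver RNA of 16 mice was sequenced and the authors deposited 1 table of TPM, with 1 column per mouse. Per the labels and the study's methods, the authors checked reads with FastQC 0.11.8, aligned them to GRCm38 with HISAT2 2.0.5, counted them per gene with featureCounts (Rsubread) and divided by exon length. The deposited TPM give shares of a library. Recovered depth rests on 138931 low values, of which 98.7% lay within 0.02 of a whole read. Depth limits low genes, and limma intervals reflect the spread between mice.

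The 11839 genes averaging 1 TPM or more were compared on log2(TPM divided by a median-of-ratios factor + 1) in limma 3.58.1 (R 4.3.3), with 1 mean per group, an intensity trend and Benjamini-Hochberg adjustment over all genes. A pseudocount of 1 understates changes of low genes. The study ran DESeq2 1.36.0 on counts, which were not analysed here. The script was tested on simulated data. Members and lists were chosen with earlier results of these data known. Members were named singly for a fixed role, the highest and lowest level per subunit, the smallest p in each direction and groups that did not overlap (28 in all). Group numbers did not pair mice: same-number correlations ran from -0.57 to 0.53. Gene models came from a GENCODE annotation of GRCm38 and promoters from RefSeq. Alternatives were TPM as deposited, without Mup and mitochondrial genes, other pseudocount and filters, fewer groups, a mouse block, voom, a length and GC correction, subunit by structure and each library left out. The levels per transcript length and the overlap counts, correlations and TPM as deposited without vehicle SP mouse 4 were chosen after seeing the data.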

Additional observations from a re-analysis of the deposited data

Results flagged for a closer look

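Of 132 sets of 4 mice tested, 9 held 1 value far from the others of its group, where chance gives about 1 in 20. Both vehicle SP values belonged to mouse 4. Its scaled TPM were 3.00 for Mrpl19, against 1.83 to 1.93 in the others, and 6.47 for Mrps12, against 13.99 to 15.2. In vehicle HP livers, Mrps21 stood at 52.65 in 1 mouse and 31.3 to 33.5 in the others, and Mrps35 at 2.99 and 2.31 to 2.42. In G108 SP livers, Mrps36 was 4.53 in 1 mouse and 5.20 to 5.29 in the others. In G108 HP livers, Mrpl39 was 7.59 against 8.13 to 8.20 and Mrps18c was 15.9 against 14.3 to 14.4. The members' median log2 deviation in G108 HP was -0.0058 in 1 liver against 0.05 to 0.06, and the large minus small subunit difference was -0.050 in 1 liver against 0.01 to 0.02. What set these values apart was not tested.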

How the results depend on the processing

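The number of members called for G108 on SP depended on the scaling. It was 0 as reported, 78 with TPM as deposited, and 1 each with the correction for exon length and GC content (Mrps31), a mean TPM of at least 5 (Mrps23) and voom (Mrps31). The shares of all genes called were 77.6% as deposited, 2.975% with that correction, 4.09% at 5 TPM and 2.97% with voom. With 1 library left out the number of members ran from 0 to 2, with 2 members without G108 HP mouse 3 or without G108 SP mouse 1 and 1 without vehicle SP mouse 1. In the other comparisons it was 0 to 0 throughout. With TPM as deposited, the difference changed sign for Mrpl4 (0.53 for G108 on SP, -0.19 for diet with G108, -0.26 for the interaction), Mrpl57 (0.38 for G108 on SP), Mrpl20 (-0.14) and Mrps36 (-0.091, both for diet with G108), where the median of all genes moved as well. All 38 members below 0 for G108 on SP after scaling were above 0 as deposited, among them Mrpl19 (0.28), Mrpl49 (0.61) and Mrps5 (0.53), and Mrpl55 turned to -0.24 for diet with G108.

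Large minus small subunit moved by over 1 SD in these settings. For G108 on SP it was 0.046 with TPM as deposited, 0.0080 with the length and GC correction and 0.029 at 5 TPM. At 5 TPM it was 0.0039 for G108 on HP and -0.0057 for diet with G108. For the interaction it was -0.019 with TPM as deposited, -0.013 with the length and GC correction, -0.055 at 5 TPM and 0.046 with voom. The members' median relative to all genes moved only for the interaction at 5 TPM, to 0.093. With 1 library left out, large minus small ran from -0.049 to 0.016 for G108 on SP, 0.0093 to 0.044 on HP, 0.0071 to 0.050 for diet with G108, -0.0048 to 0.031 with vehicle and -0.020 to 0.053 for the interaction. The cause of these moves was not tested.

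Mouse numbers did not pair the samples: over 24 same-number pairs the median correlation was -0.03, against 0.02 for other pairs, and 4 of 16 libraries correlated best with their own number. With the mouse number as a replicate block, 0 members were called in each comparison. Depth, group differences in Mup share and 4 mice per group limit what could be detected.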

Other observations

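Nuclear-encoded respiratory chain genes lay above 0 more widely than the members. For G108 on HP their median scaled difference was 0.20, with 73 of 80 above 0, beside 0.03 and 46 of 78 for the members. For HP against SP with G108 it was 0.19, with 68 of 80 above 0. Of the 11839 genes tested, 5825 and 5955 were above 0 in these comparisons. Limma called 0 of the 80 in either comparison, where 1.22% and 0% of all genes were called. At an unadjusted p under 0.05, 4 and 5 of the 80 were higher, where 5.7% and 2.98% of all genes were. The difference between the lists was not tested.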
